A study of Gallus gallus with 24 samples.

Results

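Conotruncal banding of the chick embryo was examined 1 day after the operation, as the expression difference between 1 pool of both ventricles from banded hearts and 1 pool of both ventricles from normal hearts. The comparison used 4 of the 24 arrays of the series, 2 technical arrays per pool, and all 38439 probe sets that are not array controls. Per the labels, the banded pool came from embryos operated on in the egg at embryonic day 4 and collected at day 5 (E5). The normal E5 pool came from embryos that were not operated on. Each pool held 6 to 12 hearts, and strain, sex and sham operation are not named in the labels. The other 8 normal pools were both ventricles at E4 and E6 and the left and the right ventricle separately at E6, E8 and E10. They served for context and also entered the signal filter, the choice of probe set for each gene, the model fits and an alternative control. A further pair of pools was the left and the right ventricle at E8 after partial ligation of the left atrial appendage at day 4.

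A band placed around the conotruncus, the outflow segment of the embryonic heart, narrows the path by which blood leaves the ventricles and raises the pressure they work against. In adult hearts, pressure load is known to raise genes of natriuretic peptides, fetal contractile isoforms and stretch-responsive nuclear cofactors. The embryonic ventricle of the chick is known to respond to banding with thickening of the compact wall and of the trabeculae. Both arms were a single pool, so the SD between 2 arrays measures hybridisation only and the variation between embryos was not measured. With no sham-operated pool, effects of pressure load and of the operation itself cannot be told apart. In pooled tissue, fewer cells of a type and less RNA per cell cannot be told apart either.

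The expression values were log2 values. Probe sets whose pool means all stayed under 4.09, the median of all values, were removed, which left 20335 of them and took out 18104. The table used for names gave 1 gene to 16601 of the kept probe sets, and 9575 genes were measured at their brightest kept probe set. Array medians lay between 4.03 and 4.15 over all 24 arrays. The 10 ventricular cardiomyocyte markers, among them the troponin TNNT2 and the ventricular transcription factor IRX4, were all measured, and their differences ran between -0.12 and 0.07. MYH15, the ventricular myosin heavy chain of the chick, read 15.85 and 15.90 on the banded arrays and 15.92 and 15.91 on the normal arrays. MYH15 was therefore near the top of the scale in both pools.

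Most of the transcriptome lay close to the diagonal. The difference, banded minus normal, had a median of 0.0048 and an SD of 0.240 over the kept probe sets, and 96.6% of them differed by less than 0.5. A probe set was counted as higher or lower when the pool means differed at least 2-fold, a log2 difference of 1, and the duplicate arrays did not overlap. By this rule 97 probe sets were higher in the banded pool, 0.477% of those kept, and 32 were lower, 0.157%, together 0.634%. The rule gives no p-value. With the first array of every pool left out the counts were 108 higher and 50 lower, and with the second left out 146 and 53, so leaving out arrays moved the lower count by over 1.5 times in both cases and the higher count in the second. Of the 97 and 32 probe sets, 77 and 25 were also counted without the first arrays, and 88 and 24 without the second. At 4-fold 21 probe sets were higher and 6 lower, and at 8-fold 7 and 1. Just inside the threshold lay PRRX1 at 1.0096 and BORCS8 at -1.0048, and just outside it MSX1 and SCG5, which at 0.9939 and 0.9986 fell short of 1.

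**Figure D1:**
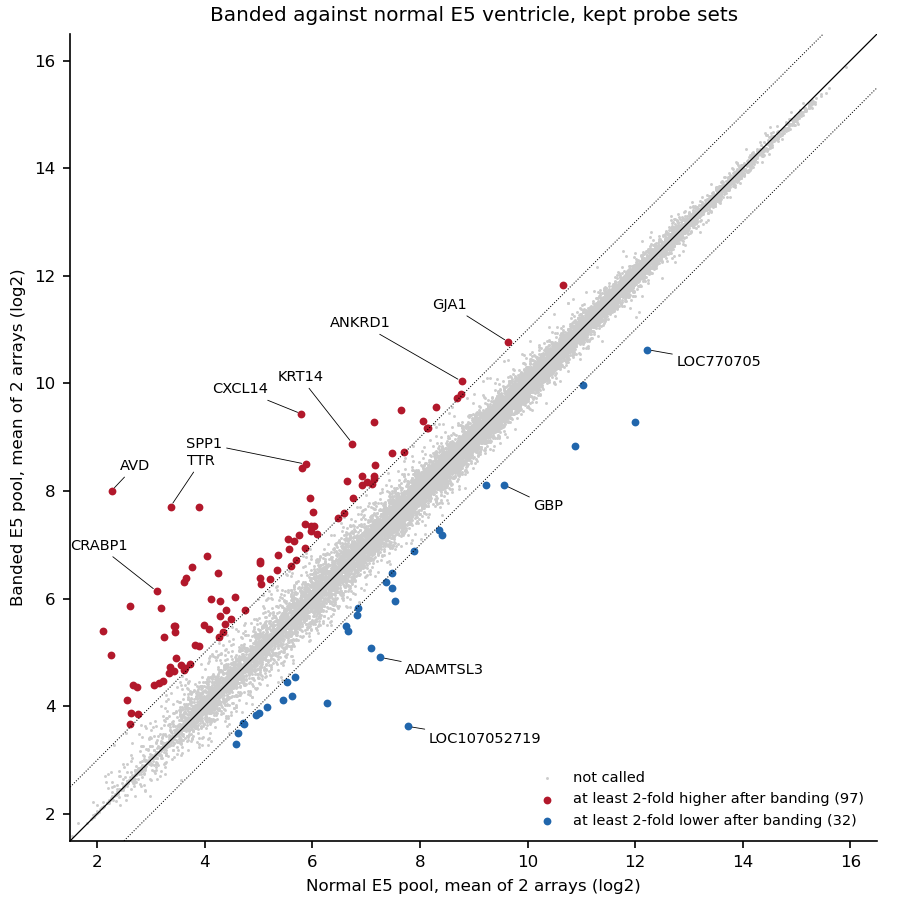
Pool means (log2) of each kept probe set in the banded E5 pool on the vertical axis and the normal E5 pool on the horizontal axis, with the diagonal and dotted lines at a 2-fold difference. The 97 probe sets that were higher after banding and the 32 that were lower stand apart from a narrow band along the diagonal.

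At the level of named genes, 52 of the 9575 were higher in the banded pool (0.543%) and 11 were lower (0.115%). The limma fit over all 12 pools, which borrows its spread from the E6, E8 and E10 pools, called 0 probe sets at an adjusted p of 0.05. That spread is in part how far these pools, the ligated ones included, departed from a constant left-right difference. The rest is how far the undivided normal E6 pool departed from the mean of the left and right ones. None of these were replicate pools of the same tissue and age. Each arm of this contrast was 1 pool, so no spread among banded or among normal E5 pools entered it. A fit on the 4 pools of both ventricles assumed a straight line in age and had 1 residual degree of freedom. It set the banded pool against that line rather than against normal E5 alone, so its estimates are of another contrast. TTR stood at 1.08 in it against 4.35 for banded minus normal E5, and PRPS2 at -0.93 against 1.95. AVD, whose normal pools all lay between 2.27 and 2.32, barely moved, at 5.73 against 5.74. The counts by fold describe these 2 pools only.

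The gene furthest apart was AVD, avidin, the biotin-binding protein of egg white, which chicken tissues are also known to make after injury or infection. AVD read 8.03 and 7.98 on the banded arrays and 2.27 on both normal arrays, a log2 difference of 5.74. The other 8 normal pools lay between 2.27 and 2.32, at the low end of the scale, so no normal pool of any age reached the filter level. AVD was also high in the ligated right ventricle, 5.14 above its normal E8 pool, and it differed by 0.54 in the ligated left ventricle. Since the normal values sit near the floor of the scale, the size of the difference depends on where the background correction put that floor.

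Next in the ranking came TTR, CXCL14 and CRABP1, which are given here with other named genes by what they are known to do. CRABP1, a cytoplasmic binding protein for retinoic acid, read 6.29 and 5.99 in the banded pool and 3.10 and 3.11 in the normal pool, a difference of 3.03. The banded values lay above all 9 normal pools, whose highest was 3.42. CRABP1 reached the filter level in the banded pool alone and was kept through it, so nothing is read from that. With values raised to the filter level its difference was 2.04. DIO3, the deiodinase that inactivates thyroid hormone, read 6.47 and 6.16 in the banded pool and 3.36 and 3.86 in the normal pool, a difference of 2.70. TTR, the plasma carrier of thyroxine and of retinol-binding protein, read 7.71 and 7.72 in the banded pool and 3.35 and 3.38 in the normal pool, a difference of 4.35. Both genes varied among normal hearts as well. DIO3 reached 6.21 in 1 of the other normal pools. TTR stood at 5.98 at E4, and at E6 at 10.54 in the undivided pool, 7.04 on the left side and 2.73 on the right. The banded value of TTR lay within the normal range through the undivided E6 pool alone. TTR also belongs to the list of foregut and liver genes described further on.

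HOX genes are homeodomain factors that set position along the body axis. The array carried 30 of them, of which 4 were measured, and 3 of these 4 were higher in the banded pool, where 0.543% of all measured genes were. HOXA3 read 6.80 and 6.78 in the banded pool and 4.15 and 3.93 in the normal pool (difference 2.75), and HOXA6 read 5.29 and 4.60 in the banded pool against 2.29 and 2.24 in the normal pool (2.68). HOXA6 passed the signal filter only through operated pools, its normal pools reaching at most 2.47, and with values raised to the filter level its difference was 0.85, short of 2-fold. HOXB3 read 9.34 and 9.27 in the banded pool and 8.04 and 8.08 in the normal pool (1.24), but its other kept probe set differed by -0.05. All 3 lay above every normal pool in the banded heart. HOXB1, the remaining one, differed by 0.23 and was not called. The HOX family was looked up after its values had been seen, and HOXA6 counted as measured because it was high in operated pools. Nothing is therefore read from the 3 of 4.

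The list of 21 genes of endocardium and cushion mesenchyme had 18 measured members, of which 3 were higher (0.543% over all measured genes) and 0 lower (0.115%). The 3 were the homeobox genes PRRX2, PRRX1 and MSX2. PRRX2 read 5.93 and 5.07 in the banded pool and 3.85 and 3.05 in the normal pool, a difference of 2.05. It passed the signal filter only through the banded pool, its normal pools reaching at most 3.51. PRRX2 therefore counted as measured because it was high there, and nothing is read from its share in the 3. With values raised to the filter level its difference was 1.41. Its relative PRRX1 was higher at both of its kept probe sets, by 1.14 and 1.01, the brighter one reading 9.24 and 9.10 in the banded pool and 8.11 and 8.21 in the normal pool. MSX2, a target of BMP signalling, read 8.11 and 8.26 in the banded pool and 6.58 and 6.71 in the normal pool, a difference of 1.54. MSX1 read 9.36 and 9.15 in the banded pool and 8.41 and 8.11 in the normal pool, and at 0.9939 it did not meet the rule. The list's median was 0.04, against 0.0054 over all measured genes, and the abundant cushion matrix genes POSTN and VCAN differed by 0.07 and -0.12. The summed level of the list was 15.60 and 15.58 on the banded arrays and 15.56 and 15.55 on the normal arrays.

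**Figure D2:**
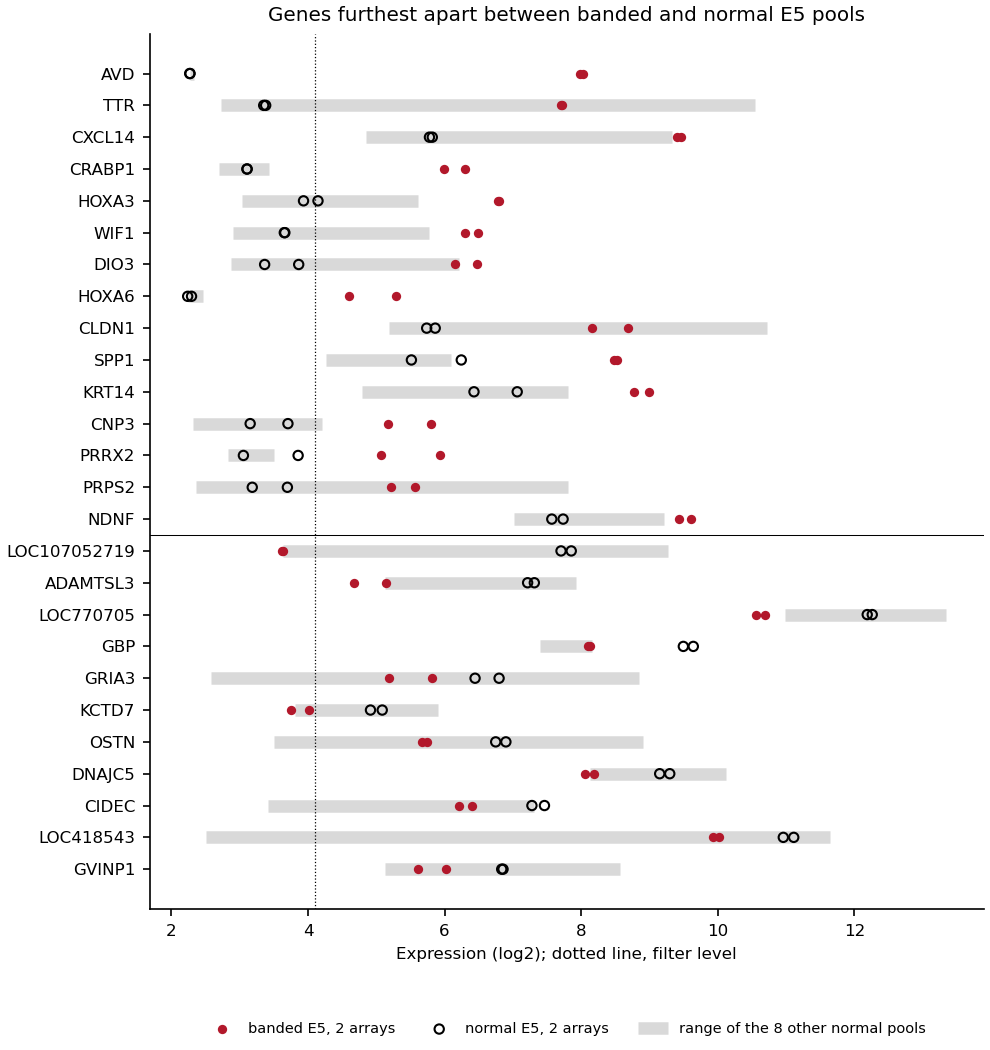
Expression (log2) of the 15 named genes that were furthest above and the 11 that were below the normal pool after banding. Filled points are the 2 banded arrays, open circles the 2 normal E5 arrays, grey bars the range of the 8 other normal pools, and the dotted line the filter level of 4.09. AVD, CRABP1, HOXA3 and HOXA6 lie to the right of their bars in the banded pool, while TTR, CLDN1 and PRPS2 lie inside theirs.

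CXCL14, a chemokine, read 9.46 and 9.41 in the banded pool and 5.78 and 5.82 in the normal pool, a difference of 3.64. It stood at 9.33 in normal E4 and 7.46 in the undivided normal E6 pool. Normal E5 was thus the lowest of these 3 undivided pools, and the banded value lay near the E4 value. The divided normal E6 pools read 8.75 on the left side and 4.85 on the right, the latter below normal E5. WIF1, a secreted inhibitor of Wnt ligands, read 6.29 and 6.50 in the banded pool and 3.65 and 3.66 in the normal pool, a difference of 2.74. For WIF1 the highest normal pool was the right ventricle at E6, at 5.77, below the banded values. NOTUM, another secreted Wnt inhibitor and chosen after its values were seen, differed by 1.24. NOTUM read 5.40 in normal E4 against 4.67 in the banded pool, so it lay inside the normal range. Its normal E5 value of 3.43 was below the filter level. CNP3, a natriuretic peptide gene of the C type, read 5.18 and 5.80 in the banded pool and 3.15 and 3.71 in the normal pool, a difference of 2.06, above all 9 normal pools. NDNF, a secreted glycoprotein first described in neurons, was higher at all 3 of its kept probe sets, by 1.67 to 2.15, and its brightest one read 9.43 and 9.61 in the banded pool and 7.57 and 7.74 in the normal pool.

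The remaining genes furthest above normal were SPP1, KRT14, CLDN1 and PRPS2. SPP1, osteopontin, a matrix glycoprotein and cytokine, read 8.52 and 8.48 in the banded pool and 6.24 and 5.51 in the normal pool, a difference of 2.62. The highest of the 8 other normal pools was 6.09. KRT14, a keratin of basal epithelium, read 8.77 and 8.99 in the banded pool and 7.06 and 6.43 in the normal pool, a difference of 2.14, and it too lay above all normal pools. CLDN1, a tight junction protein, read 8.68 and 8.16 in the banded pool and 5.74 and 5.86 in the normal pool, a difference of 2.62. CLDN1 stood at 10.73 in normal E4 ventricle and so did not leave the normal range. PRPS2, an enzyme of nucleotide synthesis, read 5.21 and 5.57 in the banded pool and 3.18 and 3.70 in the normal pool (1.95). It stood at 7.80 in normal E4 and 7.71 in the undivided normal E6 pool, and was called at 1 of its 3 kept probe sets.

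Of the 15 genes furthest above normal, 12 lay above all 9 normal pools. Of the other 28 higher genes that belong to no list, with differences between 1.02 and 1.67, 12 did so. Over the 97 probe sets, 53 were above all 9 normal pools, where 5.46% of all kept probe sets were. These probe sets had been selected for standing above normal E5, 1 of the 9, so nothing is read from that gap. To put this against pools of the same kind, the banded pool exceeded the 8 normal pools other than E5 by at least 2-fold at 16 probe sets and fell below them at 2. The normal E5 pool, set against the same 8, did so at 1 and 1. Each of the other 8 normal pools, against its own 8 fellows, did so at 1 to 119 probe sets above and 0 to 191 below, with the highest counts in the right E6 pool above and the E4 pool below. The signal filter used the highest of all 12 pools, so a probe set high in a single pool was kept through that pool. CRABP1, PRRX2 and SDK1 were kept through the banded pool alone, and AVD and HOXA6 through operated pools alone. Nothing is therefore read from the counts above. In 37 of the 97 higher probe sets the normal pool lay below the filter level, and in 3 both pools did.

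A few of the other higher genes are given with their values, chosen after these were seen. VIP, vasoactive intestinal peptide, a neuropeptide that widens vessels, read 9.12 and 9.24 in the banded pool and 8.27 and 8.01 in the normal pool, a difference of 1.04. It lay above the other normal pools, which reached 8.30. TSHZ3, a zinc finger factor, read 6.36 and 6.69 in the banded pool and 5.29 and 5.40 in the normal pool (1.18), also above the other normal pools. LGALS1A, a galectin, read 8.06 and 8.17 in the banded pool and 6.86 and 6.97 in the normal pool (1.20), inside a normal range that reached 9.03. SDK1, an adhesion protein of the immunoglobulin family, differed by 1.63, but its duplicate banded arrays disagreed. It read 3.64 and 5.09 in the banded pool and 2.75 and 2.73 in the normal pool. SDK1 passed the signal filter only through the banded pool, its normal pools reaching at most 2.94. Of the called probe sets 19 higher and 10 lower ones could not be given a single gene. The furthest apart of these, which has no gene listed, read 7.46 and 7.94 in the banded pool and 3.90 and 3.88 in the normal pool, a difference of 3.81.

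The lower genes were fewer than the higher ones. LOC107052719, a gene without a symbol, read 3.63 and 3.62 in the banded pool and 7.86 and 7.71 in the normal pool, a difference of -4.15. It ranged between 3.63 and 9.28 over the 8 other normal pools. ADAMTSL3, a secreted matrix protein of the ADAMTS-like family, read 4.67 and 5.15 in the banded pool and 7.31 and 7.22 in the normal pool (-2.36), below all normal pools, but its other kept probe set differed by 0.03. LOC770705, also without a symbol, was lower at both kept probe sets, by -1.60 and -2.06. Its brighter one read 10.69 and 10.57 in the banded pool and 12.19 and 12.26 in the normal pool, under a normal minimum of 10.99. Among lower probe sets without a single gene, those whose IDs share a sequence record differed by -2.71, -2.21 and -1.05. The furthest apart of these read 9.27 and 9.28 in the banded pool and 11.91 and 12.08 in the normal pool. Whether these falls and that of LOC770705 are related was not tested.

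GBP, a guanylate-binding GTPase of the interferon response, read 8.13 and 8.09 in the banded pool and 9.50 and 9.64 in the normal pool, a difference of -1.46. The 8 other normal pools lay between 7.40 and 8.16, so for GBP the normal E5 pool was the one that stood apart, and its other kept probe set differed by -0.20. OSTN, osteocrin, a secreted peptide that binds the natriuretic peptide clearance receptor, read 5.66 and 5.75 in the banded pool and 6.75 and 6.90 in the normal pool (-1.12). GRIA3, a glutamate receptor subunit, read 5.81 and 5.19 in the banded pool and 6.80 and 6.45 in the normal pool (-1.12), and was called at 1 of 3 kept probe sets. The remaining lower genes were KCTD7, DNAJC5, CIDEC, GVINP1 and LOC418543, whose differences ran between -1.12 and -1.03, and KCTD7 differed by -0.91 with values raised to the filter level. Of all 11 lower genes, 4 lay below every normal pool. LOC107052719 and DNAJC5 did so by little, at 3.6265 against a normal minimum of 3.6297 and at 8.1213 against 8.1366. LOC770705 did so at its brighter probe set only, as its other one averaged 8.83 against a normal minimum of 8.72. Over the 32 lower probe sets 16 did, where 4.87% of all kept probe sets were, a gap that again follows in part from how they were selected.

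The genes for which pressure load is best known were next examined as lists. Of 18 measured genes of hypertrophy and wall stress, 1 was higher (0.543% over all measured genes) and 0 were lower (0.115%). That gene was ANKRD1, a stretch-responsive nuclear cofactor of heart muscle, which read 10.08 and 10.01 in the banded pool and 8.73 and 8.82 in the normal pool, a difference of 1.27. The 8 other normal pools had ANKRD1 between 9.27 and 10.39, so the banded pool lay inside their range and the normal E5 pool below it. NPPA, atrial natriuretic peptide, read 14.90 and 14.91 in the banded pool and 14.95 and 14.87 in the normal pool. ACTA1, skeletal alpha actin of the fetal programme, differed by 0.02, and the stretch sensor CSRP3 by 0.10. The last 3 lay near the upper end of the scale, where a difference may not show in full.

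Contractile and electrical genes were measured in depth and gave 2 calls, where 0.543% of all measured genes were higher and 0.115% lower. Of 25 sarcomere genes 1 was higher, TNNI2, the fast skeletal troponin I, at 3.98 and 3.74 in the banded pool against 2.79 and 2.71 in the normal pool, below the filter level in both, with a difference of 0 once values were raised to that level. The other 24, among them MYL2, MYL3 and ACTC1 with differences of -0.05, -0.02 and -0.04, were not called. Of 17 genes of calcium handling and ion channels 1 was higher, GJA1, connexin 43, the main gap junction protein of working myocardium in mammals. GJA1 read 10.75 and 10.79 in the banded pool and 9.68 and 9.61 in the normal pool, a difference of 1.13, and the highest of the other normal pools was 10.44. GJA5, the connexin of fast conduction, differed by -0.10 and the calcium pump ATP2A2 by -0.08.

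Among 20 measured genes of mechanosensing and YAP signalling, ANKRD1 was the 1 higher gene, where 0.543% of all measured genes were higher. CYR61, a matricellular YAP target, read 10.86 and 10.73 in the banded pool and 10.05 and 10.06 in the normal pool, a difference of 0.74 that did not meet the rule. CCN2, connective tissue growth factor, read 12.68 and 12.75 in the banded pool and 12.23 and 12.31 in the normal pool, a difference of 0.45. For both genes the duplicate arrays of the pools did not overlap. Of 13 genes of shear stress and vasoactive signalling none met the rule, and the angiotensin receptor AGTR1, at 7.07 and 6.99 in the banded pool against 7.64 and 7.84 in the normal pool, differed by -0.71.

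**Figure D3:**
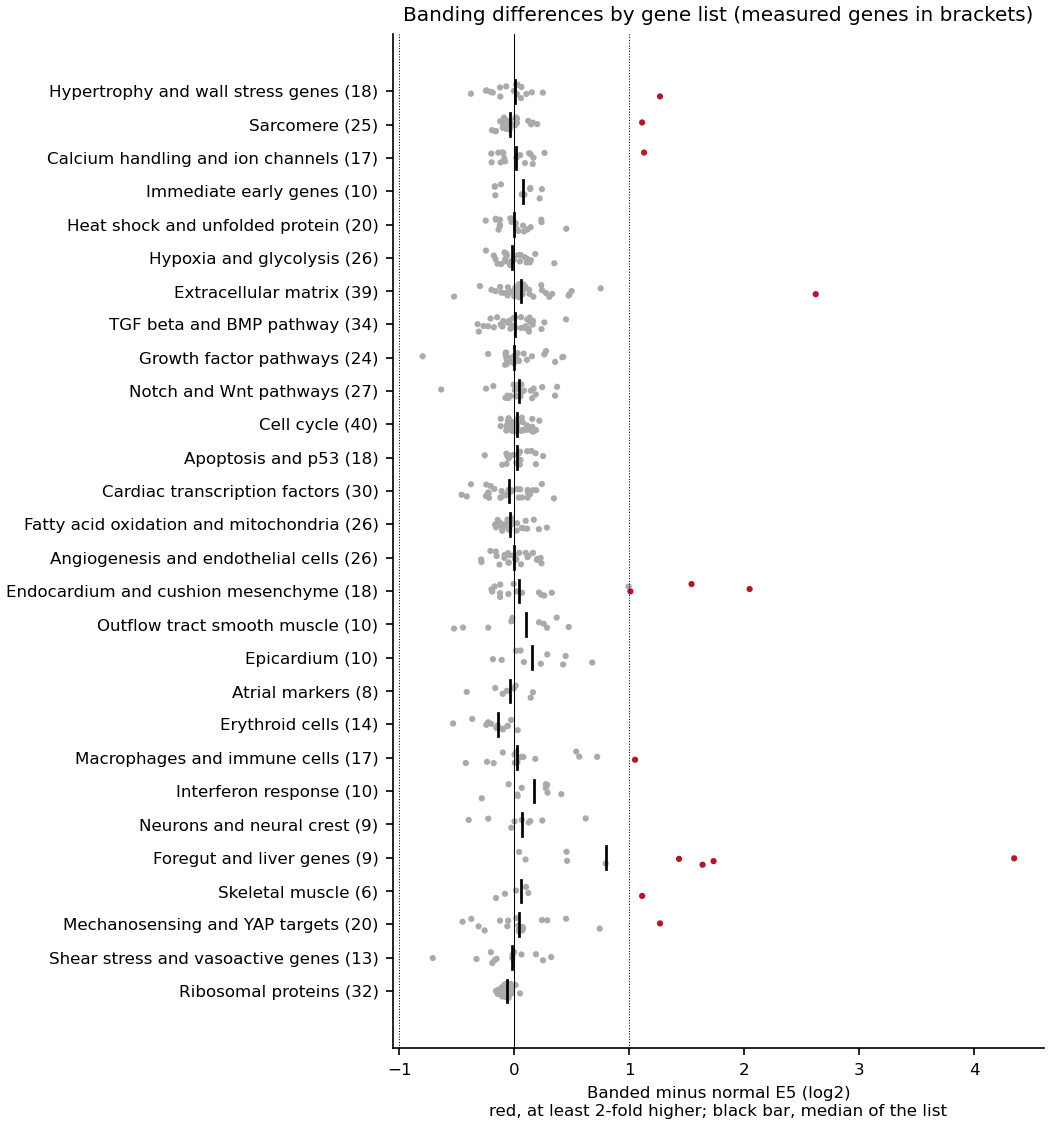
Log2 difference, banded minus normal E5, of each measured gene in 28 gene lists, with the number of measured genes in brackets. Grey points did not meet the 2-fold rule, red points were at least 2-fold higher, black bars are list medians and dotted lines mark a 2-fold difference. The cardiac, stress, growth and metabolic lists cluster around 0, and the foregut and liver list has a median of 0.79.

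The lists of immediate early genes (10 measured), heat shock and unfolded protein genes (20), hypoxia and glycolysis (26), the TGF beta and BMP pathway (34), growth factor pathways (24), Notch and Wnt pathways (27), the cell cycle (40), apoptosis and p53 (18), cardiac transcription factors (30) and fatty acid oxidation and mitochondria (26) held 0 genes that met the rule in either direction. Their medians ran between -0.05 and 0.08. The cell cycle genes kept within the narrowest range of these, between -0.12 and 0.22, with the mitotic kinase CDK1 at -0.06 and the replication clamp PCNA at -0.07. NKX2-5, the core cardiac homeodomain factor, differed by 0.07 and IRX4 by 0.05. Of 39 matrix genes SPP1 was the 1 that met the rule, with LUM, lumican, next at 0.75. FN1, fibronectin, differed by 0.24 and the collagen COL1A2 by 0.06. Over all measured genes 0.543% were higher and 0.115% lower, so nothing is read from a count of 0 or 1 in lists of these sizes.

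Lists for other cell types were read for a change in the makeup of the dissected tissue. Endothelial genes (26 measured), outflow tract smooth muscle (10), epicardium (10), atrial markers (8), erythroid cells (14), interferon response (10) and neurons and neural crest (9) held 0 genes that met the rule. With 0.543% of all measured genes higher and 0.115% lower, a count of 0 in lists this small is not read as a lack of change. The summed level of the epicardial list was 14.99 and 14.96 on the banded arrays and 14.77 and 14.80 on the normal arrays, and KRT7, a keratin of epicardium, differed by 0.45. The 4 measured epicardial markers had a summed level of 13.17 and 13.19 on the banded arrays and 13.21 and 13.29 on the normal arrays, with 2 of 4 differences positive and a median of -0.05. Globins and other erythroid genes, whose median of -0.14 was -0.09 after quantile normalization, summed to 17.59 and 17.62 on the banded arrays and 17.74 and 17.73 on the normal arrays. A negative difference was found in 13 of the 14, where 51.8% of all measured genes had a positive one. Among other bright lists, ribosomal proteins also had few positive differences, 2 of 32. Their median was -0.06, and -0.02 after quantile normalization. Matrix genes went the other way, with 27 of 39 positive. Of 17 macrophage and immune genes LGALS3, a galectin, was higher by 1.05, reading 4.50 and 4.84 in the banded pool and 3.62 on both normal arrays (0.57 with values raised to the filter level), while the macrophage receptor CSF1R differed by 0.08.

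Among the 28 plotted lists, that of foregut and liver genes had the median furthest from 0. Of 20 genes 9 were measured and 4 of these were higher, where 0.543% of all measured genes were, namely TTR, the fibrinogen chains FGB and FGG, and the epithelial cadherin CDH1. FGB read 5.01 and 4.79 in the banded pool and 3.40 and 3.55 in the normal pool, a difference of 1.43. FGG read 4.48 and 4.32 in the banded pool and 2.61 and 2.72 in the normal pool (1.73), and CDH1 read 6.74 and 6.59 in the banded pool and 4.97 and 5.08 in the normal pool (1.64). ALB, serum albumin, differed by 0.45, APOA1 by 0.79, EPCAM by 0.46, APOB by 0.10 and FGA by 0.04, so that all 9 differences were positive and their median was 0.79. With values raised to the filter level FGB differed by 0.81 and FGG by 0.30, short of 2-fold, and 2 of the 4 calls were lost.

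The summed level of these 9 genes was 12.19 and 12.16 on the banded arrays and 11.42 and 11.47 on the normal arrays. It reached 12.73 and 12.79 in the undivided normal E6 ventricles, where FGG stood at 9.01, ALB at 9.07 and FGB at 8.62, and 12.25 and 12.13 at normal E4. The divided normal E6 pools were lower, at 11.86 and 11.84 on the left side and 11.61 and 11.71 on the right. There FGG stood at 3.23 and 2.68, so normal pools of 1 age differed widely. It was 13.15 and 13.19 in the ligated left ventricle against 11.15 and 11.17 in its normal E8 pool, and 12.35 and 12.28 in the ligated right ventricle against 11.42 and 11.36 in its normal E8 pool. Among the defining liver and foregut genes that stayed below the filter level in all pools, AFP read 3.37 in the banded pool and 3.36 in the normal pool at its brighter probe set, and the regulator HNF4A at most 2.69 and 2.67. Whether tissue from outside the ventricle took part in the results was not tested.

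A difference also followed the sex chromosomes, which was noticed after the values had been seen. In birds females carry a W and a Z chromosome and males a pair of Z chromosomes, so the W chromosome is present only in females. Most W genes have a near-identical copy on the Z, and a probe set may read both. Of 14 measured genes that the RefSeq table places on W, 4 were higher in the banded pool (0.543% over all measured genes) and 0 lower (0.115%). A positive difference was found in 11, where 51.8% of all measured genes had one, and the median was 0.83. LOC374195, a W gene, read 9.70 and 9.74 in the banded pool and 8.60 and 8.77 in the normal pool, a difference of 1.04. HINTW, the most abundant of them, read 14.37 and 14.36 in the banded pool and 14.04 and 14.06 in the normal pool, a difference of 0.31. The 3 with a negative difference were NEDD4L, MBD2 and LOC425347, between -0.31 and -0.22.

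**Figure D4:**
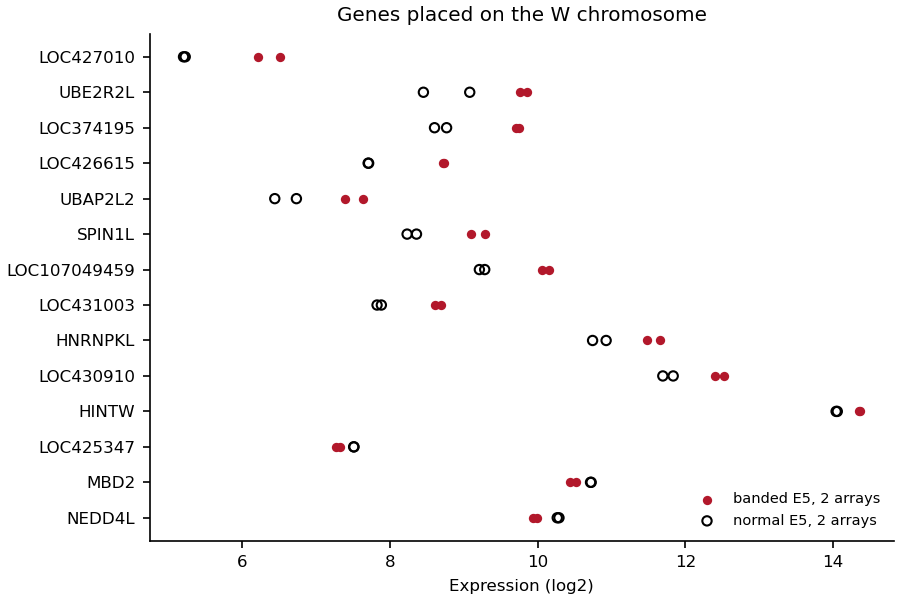
Expression (log2) on each array of the 14 measured genes placed on the W chromosome, filled points for the banded and open circles for the normal E5 pool. In 11 genes both banded arrays lie to the right of both normal arrays, and in NEDD4L, MBD2 and LOC425347 they lie to the left.

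Genes on the Z chromosome differed the other way. Of 462 measured, 130 had a positive difference and the median was -0.12, where 51.8% of all measured genes had a positive difference. The medians of the 33 other chromosomes with at least 10 measured genes ran between -0.08 and 0.08. AVD was the 1 gene on Z that met the rule. Both medians kept their sign after quantile normalization and after median centring, at 0.83 and 0.80 for W and -0.12 and -0.14 for Z. The summed level of the W genes was 15.17 on both banded arrays and 14.73 and 14.79 on the normal arrays, and over all 12 pools it ran between 14.66 in the left E10 pool and 15.27 in the ligated right ventricle. The sex of the pooled embryos is not given, and its part in the other differences was not tested. Without the W genes the counts were 93 higher and 32 lower.

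Against neighbouring ages, the banded pool lay nearer to its own day than to the days around it. The SD of the difference over kept probe sets was 0.240 to normal E5, 0.327 to normal E6 and 0.505 to normal E4. At 2-fold, 211 probe sets separated the banded pool from E6 (1.04%) and 853 separated it from E4 (4.19%), against 129 from normal E5. For comparison, normal E5 differed from normal E4 with an SD of 0.515 at 895 probe sets (4.4%), and normal E6 from normal E5 with 0.337 at 176 (0.866%). The arrays of one pool differed with an SD of 0.161 in the banded pool and 0.177 in the normal E5 pool. These comparisons share pools, so no overlap between them is given.

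The choice of control pool mattered for single genes. When the banded pool was set against the mean of the undivided normal E4 and E6 pools, an alternative chosen after seeing the data, 213 probe sets were higher and 104 lower. Of these, 48 and 9 had been counted against normal E5. HOXA3, HOXB3, SPP1 and KRT14 kept their direction there, while TTR stood at -0.55, CLDN1 at -0.83, PRPS2 at -2.37, FGB at -1.19 and FGG at -1.42. For FGG the sign came from the E6 pool, at 9.01, as the E4 pool stood at 2.63, below the banded 4.40. AVD, CRABP1 and HOXA6 kept their direction too, but their normal pools reached at most 2.32, 3.42 and 2.47, all below the filter level. Another normal control could hardly change their direction, so nothing is read from it. ANKRD1 differed by 0.66 and CXCL14 by 1.04 in that setting.

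The ligation pools, which have controls of their own, gave a separate set of operated and normal hearts at E8. In the ligated left ventricle 516 probe sets were higher (2.54%) and 337 lower (1.66%), and in the ligated right ventricle 402 were higher (1.98%) and 446 lower (2.19%). Of the 97 probe sets higher after banding, 32 were also higher in the ligated left ventricle, 33.0% of the banding list and 6.2% of the ligation list. In the ligated right ventricle 25 were, 25.8% of the banding list and 6.22% of the ligation list, and 19 were higher in both. HOXA3 was among the last, 1.96 above normal in the left ligated ventricle and 2.17 in the right one, as were SPP1 at 1.96 and 1.94 and KRT14 at 2.16 and 1.91. PRRX1 differed by 3.55 on the left side and 1.45 on the right side at one probe set, called on both, and by 2.98 and 0.43 at its brighter one. The summed W genes stood at 15.10 in the ligated left ventricle against 14.67 in its normal pool, and at 15.27 in the ligated right ventricle against 14.9964, and the summed level of the foregut and liver genes was higher in both, as given above. Their part in the shared calls was not tested.

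Over the 97 probe sets the median ligation difference was 0.55 on the left side and 0.33 on the right side, and 76 and 71 of them were positive, where 50% and 50.2% of all kept probe sets were. CRABP1 differed by 0.71 on the left side and 0.06 on the right, and ANKRD1 by 0.37 and 0.31, without a call. Of the 32 lower probe sets, 8 were lower in the ligated left ventricle (25%, and 2.37% of the ligation list) and 8 were higher there, while 4 were lower in the right (12.5%, and 0.897%) and 8 were higher. LOC107052719 fell by 4.50 in the ligated left ventricle and stood 1.15 above normal in the right. Banding and ligation pools differed in age, in the side dissected and in the days since surgery, and no difference between the 2 operations was tested.

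**Figure D5:**
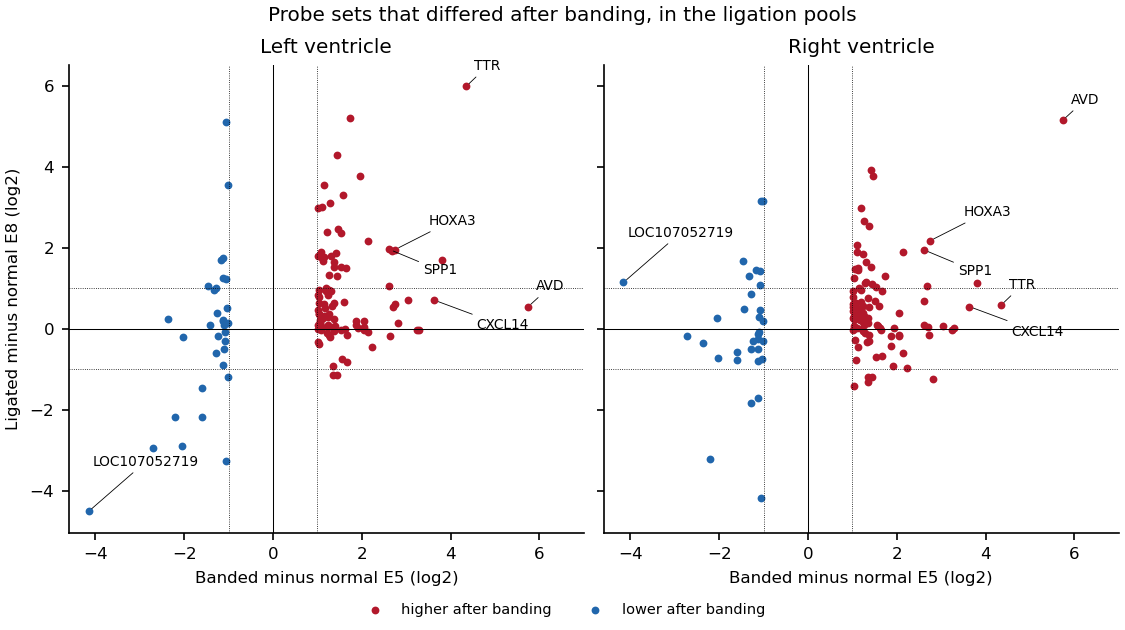
For each probe set that met the rule after banding, the banding difference (log2, horizontal) against the difference between ligated and normal E8 pools (log2, vertical), for the left and the right ventricle, with dotted lines at 2-fold. Most of the red points lie above 0 in both panels, with TTR highest in the left and AVD in the right ventricle, while the blue points lie on both sides of 0.

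Where a gene had several probe sets, these often disagreed. Of the called genes 47 had more than 1 kept probe set, and in 6 all of them met the rule in the same direction: NDNF, NAALAD2, LRRC32, PRRX1, LOC416696 and LOC770705. Of these, LRRC32, a surface protein that presents latent TGF beta, was higher by 2.22 and 1.23, and NAALAD2, a peptidase, by 1.04 to 1.45 at 3 probe sets. Both genes lay inside the normal range at all of these probe sets. At its brightest one LRRC32 averaged 8.71 in the banded pool, against a normal maximum of 10.05. The brightest one of NAALAD2 averaged 6.80, against 7.46. That NAALAD2 probe set was called lower after ligation on both sides, with differences of -1.14 (left) and -1.19 (right). Unlike these 6 genes, FBXO22 was higher by 2.81 at 1 of 6 kept probe sets, with 0.03 at the brightest one. NAV2 was higher by 2.62 at 1 of 6, with 0.02 at the brightest. UPK1B, an epicardial gene, was higher by 3.29 at 1 of 3 and differed by 0.68 at the brightest. At the probe set with 3.29, UPK1B read 5.41 in the banded pool, 2.12 in normal E5 and 8.93 in normal E4. The banded value there lay inside the normal range. TF, transferrin, was higher by 1.28 at 1 of 3 and LMO4, a LIM-domain cofactor, by 1.26 at 1 of 2, with 0.07 and 0.21 at the brightest. Results for a gene with 1 probe set, such as AVD, CRABP1, HOXA3, SPP1 and ANKRD1, rest on that probe set alone.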

How the data were processed

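The authors deposited log2 values for 38535 probe sets on 24 arrays, between 0.14 and 16.09. The log2 scale was read from their range. The submitters' processing notes name GCRMA and MAS5, with no version and no word on which produced these values. The values were used as deposited, the 96 control probe sets were left out, and the 2 technical arrays of a pool were averaged, so n = 1 pool per condition. The number of arrays limits the precision. Genes came from the platform annotation, updated by Entrez ID to RefSeq GRCg7b (26853 of 27345 annotated probe sets matched), and 3644 kept probe sets had no gene listed and 90 had several. The banding contrast used limma 3.58.1 in R 4.3.3 (two-sided, 4 residual degrees of freedom, stage and treatment as a block, side as a covariate, Benjamini-Hochberg). In it, the lone pools are assumed to vary like the others. The fit was also run on simulated data that made the same assumption, so that run cannot test it. Summed levels are log2 of summed linear values. Named are the 15 genes furthest apart in each direction that met the 2-fold rule (11 lower genes met it), list members that met it, up to 4 of the brightest members of a list, and genes whose probe sets disagree. The experiment, lists and rules were chosen with earlier results of these data known. Alternatives covered the filter, the fold, normalization, single arrays and the control pool.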

Additional observations from a re-analysis of the deposited data

How the results depend on the processing

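Under the other settings tried, the 97 higher and 32 lower probe sets became 28 and 15 with a filter at the 70th percentile, 319 and 151 at 1.5-fold, 21 and 6 at 4-fold, and 108 to 146 and 50 to 53 with 1 array of every pool left out. Quantile normalization gave 91 and 32 and median centring 90 and 32. Limma called 7 probe sets with no filter and 0 to 3 with 1 array of every pool left out, among them SDK1, and 0 in the 6 other settings run. Of the genes on the lists, 0 to 2 were lower with 1 array left out. Against the mean of the undivided normal E4 and E6 pools, a setting chosen after seeing the data, the counts were 213 and 104. There 10 of 35 named genes changed sign: TTR (-0.55), CLDN1 (-0.83), PRPS2 (-2.37), LGALS3 (-0.83), FGB (-1.19), FGG (-1.42), GBP (0.30), GRIA3 (1.13), OSTN (0.54) and LOC418543 (1.02). The cause was not tested. Under quantile normalization, median centring, a floor at the filter level and single arrays 0 named genes changed sign. No paired analysis was possible because the array numbers mark 2 technical arrays of 1 pool, which were averaged before the fit (correlation of their deviations between the banded and the normal pool -0.0261). Differences of dim probe sets depend on the floor of the scale: with values raised to the filter level, 79 were higher and 26 lower, and HOXA6 (0.85), FGB (0.81), FGG (0.30), LGALS3 (0.57), TNNI2 (0) and KCTD7 (-0.91) no longer reached 2-fold.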
